A study of Mus musculus with 6 samples.

Results

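The Zbtb genes encode BTB zinc finger proteins, a family of transcription factors, and they were followed in regulatory T cells (Tregs) lacking or carrying a functional copy of the NF-kB gene Nfkb2. Members were the protein-coding genes whose symbol in the GENCODE M21 annotation of GRCm38 starts with Zbtb and a digit. This gave 41 genes of the 55573 listed. A further gene with such a symbol, the antisense RNA Zbtb11os1, is not protein coding and was left out. Zbtb8os meets the rule by its symbol only: it is named for lying opposite Zbtb8a and encodes archease, a helper of the tRNA ligase, not a BTB zinc finger protein.

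The compared cells were Nfkb2-/- Tregs and wild-type Tregs, with 3 libraries per genotype that the labels call biological repeats. All came from the spleen of chimeric mice, hosts in which transplanted bone marrow rebuilds the blood (the series text calls these chimeras bi-parental), and were sorted and then kept in culture medium for 2 h before lysis. The labels give a purity above 90% after sorting, no other agent, and neither the age and sex of donors and hosts nor the host's remaining cells. Nfkb2 encodes p100, which holds NF-kB dimers in the cytoplasm and is processed to the subunit p52.

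BTB zinc finger proteins join a BTB domain at the amino end, which pairs the proteins and recruits corepressors such as NCOR1, SMRT and BCOR or the ubiquitin ligase scaffold CUL3, to zinc fingers that read DNA. Several members direct lymphocyte fate. ThPOK (Zbtb7b) commits thymocytes to the CD4 lineage, PLZF (Zbtb16) drives innate-like T cells, and Zbtb46 marks classical dendritic cells and their precursors.

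Members were chosen by symbol and gene type, so no measured value enters the rule, but the family was proposed with earlier results of the genotype comparison known. The calls and p-values of members are therefore given as a description, and no test was made of the family as a list. Levels are CPM, counts scaled to the TMM-normalised size of the library. A gene was called where edgeR's quasi-likelihood test gave a Benjamini-Hochberg adjusted p under 0.05 over the 13347 genes that passed the count filter.

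Library totals were 12005273 to 14359439 counts in the Nfkb2-/- libraries and 12499343 to 17278521 counts in wild type. Nfkb2 itself stood at 269, 324 and 271 CPM in the Nfkb2-/- libraries, against 558, 545 and 556 CPM in wild type. The targeted gene was lower but not absent (log2 fold change -0.94, SE 0.134, edgeR adjusted p = 0.0203). Foxp3, which defines Tregs, averaged 525 ± 67.4 CPM in Nfkb2-/- Tregs, against 505 ± 109 CPM in wild-type Tregs (SD, n = 3 each). Xist, the female X-inactivation transcript, ran from 592 to 883 CPM in Nfkb2-/- and from 1.94 to 16.5 CPM in wild type. The summed level of 4 Y-linked genes was 40.0 to 275 CPM and 465 to 498 CPM in the same groups. Donor sex and genotype therefore cannot be told apart in any comparison here. Nor was the Nfkb2-/- group uniform, since each of its libraries carried Xist and Y-linked transcripts at once. Replicate 1 of that group had a Y-linked sum of 40.0 CPM, replicate 2 had 138 CPM and replicate 3 had 275 CPM. Whether cells of both sexes, of another donor or of the host were mixed in them was not tested. The part of such cells in the remaining Nfkb2 level or in the Zbtb results was not tested either. The 10 B cell markers had summed levels of 32.8 to 60.9 CPM in Nfkb2-/- and 86.8 to 286 CPM in wild type. The 4 CD8 T cell markers had summed levels of 313 to 341 CPM and 101 to 198 CPM in the same groups, of which Runx3, a factor that other T cells also use, made up 300.3 to 326 CPM and 84.9 to 171 CPM. The other 3 (Cd8a, Cd8b1 and Gzmk) had negative log2 fold changes, at -0.95 for Cd8a and -0.48 for Cd8b1, and the median of the 4 was -0.72. None of the 4 was called by edgeR or limma-voom, 1 was higher and 1 lower at an unadjusted p under 0.05, and DESeq2 called 1 higher. Over all genes tested, 7.25% were higher and 6.35% lower at that unadjusted p by edgeR, and DESeq2 called 2.48% higher. The 9 natural killer and innate-like T cell markers summed to 44.0 to 49.6 CPM in Nfkb2-/- and 22.2 to 42.7 CPM in wild type, with a median log2 fold change of -0.21 over the 7 tested. The part of these markers in the Zbtb results was not tested beyond the B cell covariate fit given with Zbtb46. Summed levels of T cell, Treg, plasma cell, plasmacytoid dendritic cell, monocyte and macrophage, neutrophil and erythroid markers overlapped between genotypes. In bulk samples of this kind, fewer cells of a type and less RNA per cell cannot be told apart.

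Of the 41 Zbtb genes, 38 passed the count filter and 1 was called higher in Nfkb2-/- Tregs, against 1.01% of all genes tested. None of the 38 was called lower by edgeR, against 0.405% of all genes tested, and limma-voom and DESeq2 also called 0 lower (0.315% and 1.45% of all genes they tested). At an unadjusted p under 0.05, 2 members were higher and 1 was lower, against 7.25% and 6.35% of all genes tested. The gene called was Zbtb46, which limma-voom also called alone (1.08% of all genes called higher), while DESeq2 called it and Zbtb1 (2.48%). In either direction, 1.42% of all genes tested were called. The same shares stand beside the counts given below for groups of members by role. The Nfkb2-/- levels lay wholly above the wild-type levels in 4 members (Zbtb46, Zbtb1, Zbtb43 and Zbtb41), where the share over all genes tested was 10.7%. They lay wholly below them in 2 members (Zbtb40 and Zbtb11), where that share was 9.9%.

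Most of the family differed little between genotypes. The log2 fold change (Nfkb2-/- over wild type) was positive in 17 and negative in 21 members, with a median of -0.02, beside a median of -0.03 over all genes tested. It was smaller than 0.35 in size in 31 of 38 members, or 81.6%, beside 68.3% of all genes tested. Summed over all members, the Zbtb genes came to 2037, 2164 and 2098 CPM in Nfkb2-/- Tregs, against 2158, 1979 and 1852 CPM in wild-type Tregs, and the groups overlapped. Without Zbtb46 and Zbtb1, chosen for leaving out after their values were seen, the sums were 1708, 1759 and 1695 CPM in Nfkb2-/- and 1963, 1750 and 1664 CPM in wild type.

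**Figure D1:**
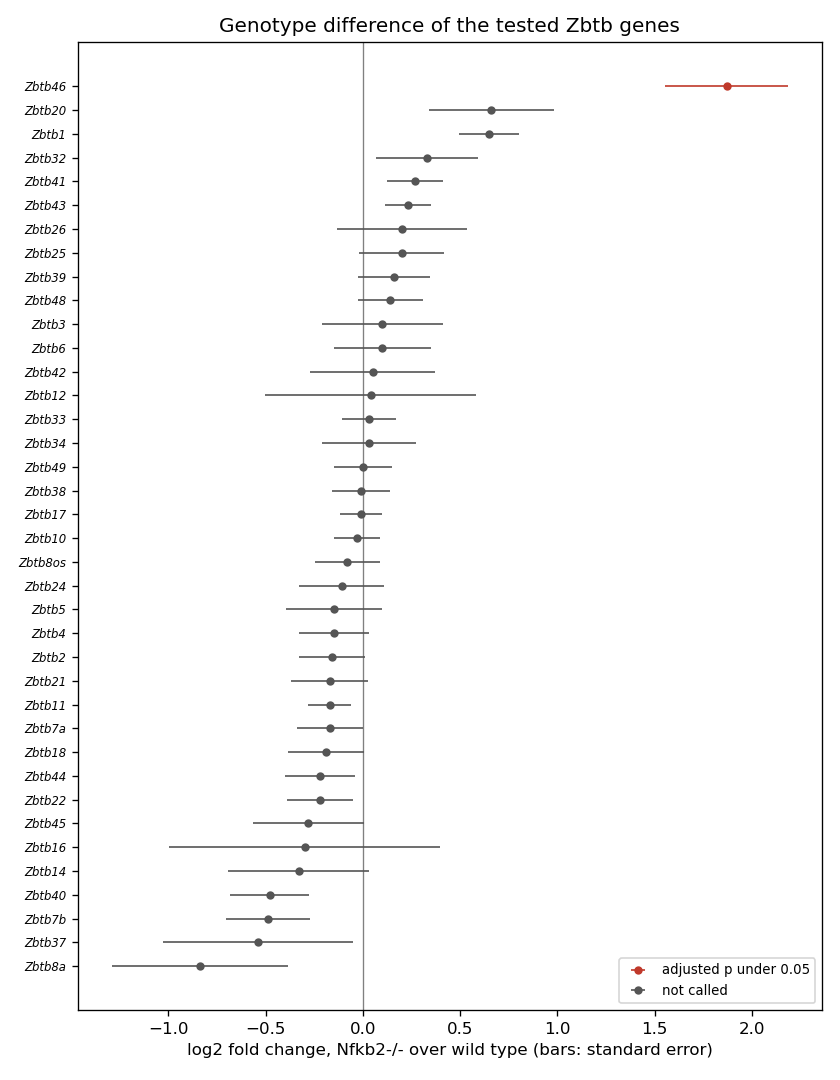
Log2 fold change (Nfkb2-/- over wild type, x axis) of the 38 tested Zbtb genes, 1 per row, with edgeR standard errors as bars. Zbtb46, at 1.87, stands apart from the other members, which lie between -0.84 and 0.66, and is the only one drawn as called.

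Zbtb46 rose 3.68-fold in Nfkb2-/- Tregs. Its product, also called BTBD4 or zDC, restrains the activation of classical dendritic cells. It stood at 86.8, 102 and 118 CPM in the Nfkb2-/- libraries, against 42.1, 24.9 and 16.5 CPM in wild type. The lowest Nfkb2-/- library had more than 2 times the level of the highest wild-type library, which was replicate 1. The means were 102.5 ± 15.8 CPM and 27.8 ± 13.0 CPM (SD, n = 3 each), from 3956 counts over the Nfkb2-/- libraries and 1292 over wild type. The log2 fold change was 1.87 (SE 0.317, edgeR adjusted p = 0.0355).

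Each alternative fit kept the direction of the Zbtb46 difference, but its call was lost when any library other than wild-type replicate 1 was left out. Without Nfkb2-/- replicate 1 the edgeR adjusted p was 0.126, in a fit that called 0.0872% of all genes higher and 0.0218% lower. It was 0.165 without Nfkb2-/- replicate 2 (0.0436% and 0.00727% of all genes) and 0.186 without Nfkb2-/- replicate 3 (0.0797% and 0.00725%). Leaving out wild-type replicate 1 lowered it to 0.000101 (4.6% and 4.44% of all genes), and it was 0.114 without wild-type replicate 2 (0.393% and 0.0655%) and 0.0595 without wild-type replicate 3 (0.406% and 0.0725%). Over these 6 fits the log2 fold change lay between 1.61 and 2.30, and 0 members were called lower. Few genes of any kind were called once a library other than wild-type replicate 1 was missing.

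Zbtb46 was called, and no member was lower, under RLE scaling (edgeR adjusted p = 0.0349, with 1% and 0.412% of all genes called higher and lower), upper-quartile scaling (0.0362, with 0.989% and 0.427%) and a filter of 1 CPM in 3 libraries (0.0365, with 1.03% and 0.406%). With the summed Y-linked level as a covariate its log2 fold change was 2.17 (edgeR adjusted p = 0.364), in a fit that called 0.045% of all genes higher and 0.00749% lower. With the summed B cell marker level as a covariate its log2 fold change was 1.29 (edgeR adjusted p = 0.0918). That fit called Zbtb1 and Zbtb20 higher and 9 members lower, against 8.52% and 10.9% of all genes. Neither covariate overlapped between genotypes, so neither can be told apart from genotype in these fits.

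The other markers of classical dendritic cells were low in these libraries. The 6 listed beside Zbtb46 (Flt3, Itgax, Batf3, Clec9a, Xcr1 and Cd209a) had a summed level of 2.15, 5.14 and 6.68 CPM in Nfkb2-/- Tregs, against 2.80, 15.4 and 6.80 CPM in wild-type Tregs. These sums overlapped between genotypes, and the highest was in wild-type replicate 2. Flt3, the receptor of the main dendritic cell growth factor, was at 0.165, 0.774 and 0.814 CPM in Nfkb2-/- and at 0.270, 3.96 and 1.34 CPM in wild type. Clec9a, a dead-cell receptor of cross-presenting dendritic cells, was at 0.0827, 0.282 and 0.326 CPM in Nfkb2-/- and at 0.108, 1.82 and 0.0840 CPM in wild type. Both were highest in wild-type replicate 2. Of the 6, Itgax and Xcr1 passed the count filter, and neither had an unadjusted p under 0.05 by edgeR or a call by DESeq2 or limma-voom. The part of dendritic cells in the Zbtb46 levels was not tested.

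**Figure D2:**
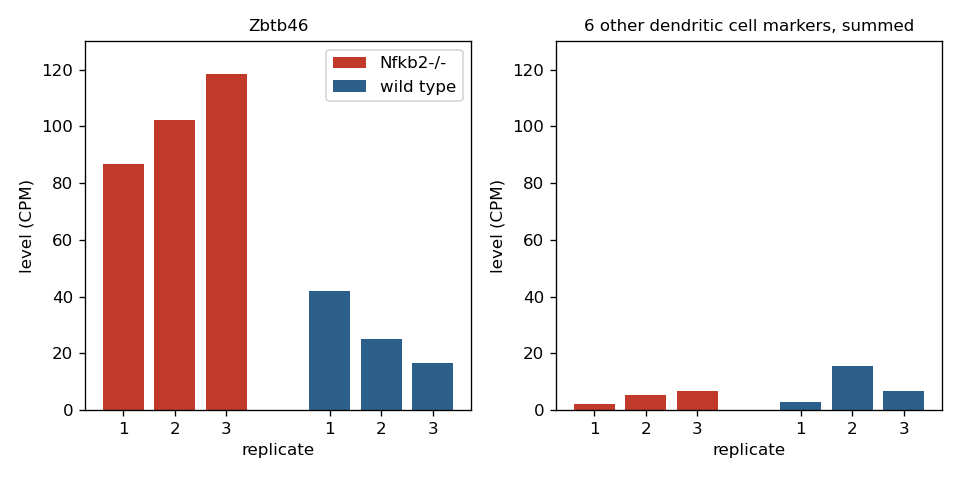
Level in CPM (y axis) of Zbtb46 (left panel) and of the other 6 classical dendritic cell markers summed (right panel), with a bar per library, Nfkb2-/- left of wild type. Zbtb46 stands at 86.8 to 118 CPM in Nfkb2-/- and 16.5 to 42.1 CPM in wild type, while the other markers together stay at or below 6.68 CPM in Nfkb2-/- Tregs and 15.4 CPM in wild-type Tregs.

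Zbtb46 (ENSMUSG00000027583) lies on the minus strand of chromosome 2, from 181387762 to 181459426 (GRCm38), and none of its exons overlaps another annotated gene. The sequence is shown because Zbtb46 was the called member. The RefSeq window of 250 bases before to 50 after an annotated start lies at chr2:181424339-181424638 (GRCm38.p6, minus strand), 35038 bases inside the gene from its first GENCODE start. The counts per gene do not show which start was used. In the line that follows, printed 5′ to 3′ on the minus strand, capitals mark the CpG dinucleotides.
Zbtb46 window: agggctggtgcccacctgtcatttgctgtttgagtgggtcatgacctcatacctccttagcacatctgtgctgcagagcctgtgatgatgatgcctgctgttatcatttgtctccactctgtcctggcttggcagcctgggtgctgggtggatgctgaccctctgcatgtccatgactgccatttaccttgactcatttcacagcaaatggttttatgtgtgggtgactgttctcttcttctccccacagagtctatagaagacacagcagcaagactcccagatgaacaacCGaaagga
The window held 1 CpG, the fewest of the 36 Zbtb genes that had such a window, where the median over 49 windows was 25. Over the 11937 windows of genes tested here the median was 20. Next in order were Zbtb20 with 3 and Zbtb7b with 8, while Zbtb14 had the most, with 56. The kappa-B consensus, searched on both strands, had no match in this Zbtb46 window. It was present in 6 of the 49 Zbtb windows, or 12.2%, and in 10.4% of the windows of genes tested and 8.46% of all 32851 windows. The genes with a match were Zbtb4, Zbtb7a, Zbtb14, Zbtb21, Zbtb26 and Zbtb41, and none of them was called.

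Zbtb1 was the member next in order of p. It is required for the development of T cells and other lymphocytes in mice. Its level was 242, 303 and 285 CPM in the Nfkb2-/- libraries, against 153, 204 and 171 CPM in wild type. The groups did not overlap, with 277 ± 31.4 CPM in Nfkb2-/- Tregs, against 176 ± 26.3 CPM in wild-type Tregs (SD, n = 3 each). The log2 fold change was 0.65 (SE 0.154), and the edgeR adjusted p of 0.101 missed the threshold.

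Zbtb1 was called in several other fits. With the replicate number as a block its edgeR adjusted p was 0.0483. That fit called 2 members higher and 0 lower, against 1.47% and 0.697% of all genes tested. Without wild-type replicate 1 the edgeR adjusted p was 0.0172. It was 0.0189 by DESeq2 and 0.0344 by edgeR with no count filter, where 1.08% and 0.642% of all genes were called higher and lower. Without Nfkb2-/- replicate 2 the edgeR adjusted p was 0.428, and over the 6 fits that left out a library the log2 fold change lay between 0.56 and 0.77.

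Zbtb1 and Zbtb25 start head to head on chromosome 12, and the levels of Zbtb25 overlapped between genotypes where those of Zbtb1 did not. Zbtb25 ends its minus-strand span at 76369602 and Zbtb1 begins on the plus strand at 76370266, a gap of 664 bases (GRCm38). Zbtb25 was at 62.9, 40.8 and 50.6 CPM in Nfkb2-/- and at 34.9, 44.4 and 55.4 CPM in wild type. Its log2 fold change was 0.20 (SE 0.218, edgeR adjusted p = 0.773). The difference between the responses of the neighbouring genes was not tested.

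**Figure D3:**
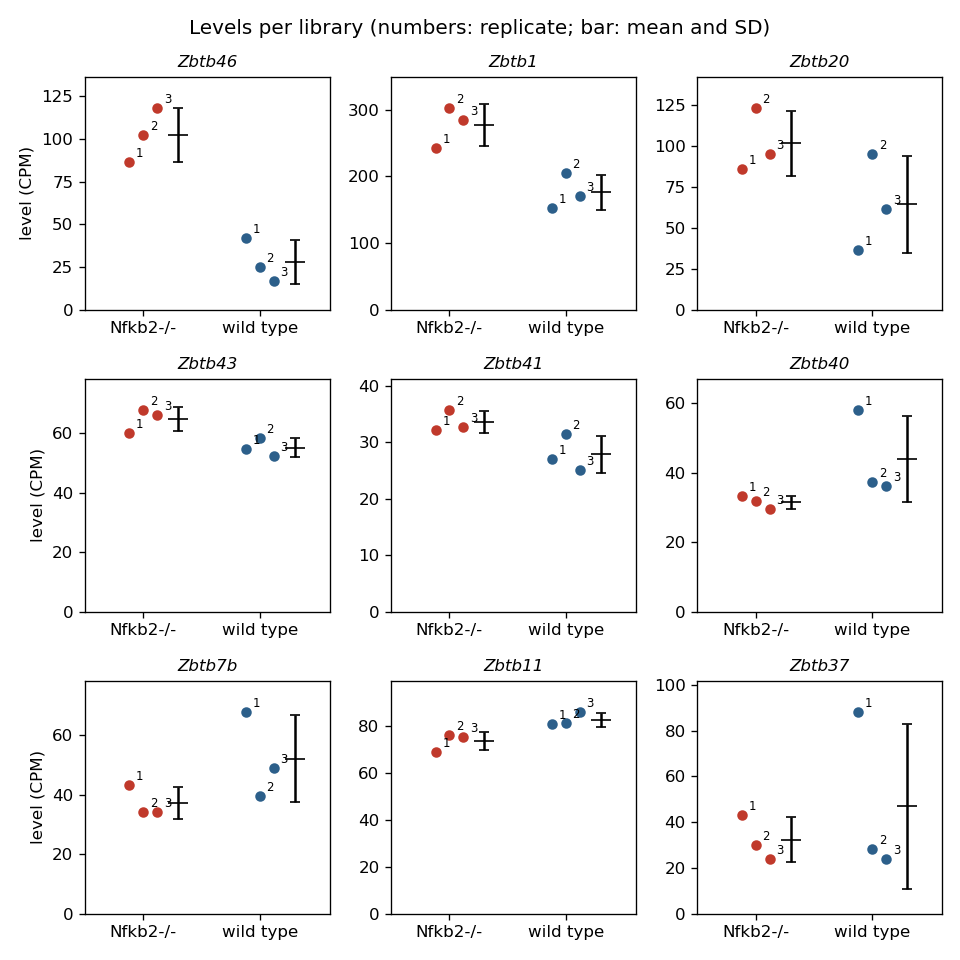
CPM per library (y axis, from 0) of 9 Zbtb genes, with Nfkb2-/- left of wild type, points numbered by replicate, and the mean and SD drawn beside them. In Zbtb46, Zbtb1, Zbtb43 and Zbtb41 all Nfkb2-/- points lie above all wild-type points, and in Zbtb40 and Zbtb11 below them. In Zbtb37 wild-type replicate 1, at 88.4 CPM, stands above the other 5 libraries.

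Of the 8 members with roles in T lineage and lymphocyte development, 0 were called in either direction by edgeR, and Zbtb1 alone had an unadjusted p under 0.05. The log2 fold change was positive in 4, with a median of 0.09. By DESeq2 1 was called higher (Zbtb1) and 0 lower, and by limma-voom 0 were called. Zbtb7b, which encodes ThPOK, was at 43.4, 34.2 and 34.0 CPM in Nfkb2-/- and at 68.1, 39.6 and 49.0 CPM in wild type. The ranges overlapped through Nfkb2-/- replicate 1, and the log2 fold change was -0.49 (SE 0.216, edgeR adjusted p = 0.375). Wild-type replicate 1 had the highest level, and without it the log2 fold change was -0.25.

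Zbtb7a and Zbtb17 had the highest levels per kb of these genes over all 6 libraries, while within the Nfkb2-/- libraries Zbtb1 was higher, at 22.7 CPM per kb, than either. Zbtb7a, which encodes LRF, a repressor active in many blood lineages, was at 132, 144 and 151 CPM in Nfkb2-/- and at 199.7, 150.02 and 132 CPM in wild type. Its log2 fold change of -0.17 (edgeR SE 0.168, adjusted p = 0.740) turned to 0.02 without wild-type replicate 1. Zbtb17, which encodes the MYC partner MIZ-1 needed for early T and B cell development, was at 77.0, 79.1 and 73.4 CPM in Nfkb2-/- and at 75.9, 75.8 and 79.2 CPM in wild type. Its 6 libraries lay within 73.4 to 79.2 CPM, and the log2 fold change was -0.01 (SE 0.107).

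Zbtb20, a repressor best known in liver and also used by plasma cells, varied more between replicates. It was at 85.6, 123 and 95.4 CPM in Nfkb2-/- and at 36.4, 95.2 and 61.3 CPM in wild type. Of these, wild-type replicate 2 reached the range of the Nfkb2-/- libraries, and the log2 fold change was 0.66 (SE 0.321, edgeR adjusted p = 0.429). The library with the lowest Zbtb20 level, wild-type replicate 1, also held the fewest B cell marker counts of the wild-type libraries (86.8 CPM, against 286 and 198 CPM in replicates 2 and 3). Within wild type, replicate 2 was the highest library for both. The B cell marker sums of the Nfkb2-/- libraries were 32.8, 44.5 and 60.9 CPM. The part of B cells in the Zbtb20 levels was not tested beyond the covariate fit that follows. With the B cell marker level as a covariate the log2 fold change was 2.05 (edgeR adjusted p = 0.00841). That fit called 8.52% of all genes higher and 10.9% lower. The marker sums did not overlap between genotypes, so this covariate cannot be told apart from genotype. Leaving out a library at a time gave log2 fold changes between 0.37 and 1.05.

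The remaining lymphocyte regulators were low. Zbtb32, which restrains T cell activation and memory B cell recall, was at 5.54, 9.22 and 7.003 CPM in Nfkb2-/- and at 4.80, 6.49 and 6.13 CPM in wild type. The ranges overlapped (log2 fold change 0.33, SE 0.261, edgeR adjusted p = 0.667). Zbtb16, which encodes PLZF, was at 0.745, 3.31 and 2.28 CPM in Nfkb2-/- and at 1.46, 5.30 and 1.18 CPM in wild type, with overlap. It had the lowest level per length of all tested members. The libraries of each genotype differed widely, with 9, 47 and 28 counts in Nfkb2-/- and 27, 67 and 14 counts in wild type. Its log2 fold change was -0.30 with an SE of 0.696, and 0.67 without wild-type replicate 2. Of the 9 markers of natural killer and innate-like T cells, a list that includes Zbtb16, 7 were tested, 1 was called higher (Eomes) and 0 lower by edgeR. At an unadjusted p under 0.05 by edgeR, 1 was higher and 1 was lower (Klrd1). DESeq2 and limma-voom each called 1 higher and 0 lower. Over all genes tested, edgeR called 1.01% higher and 0.405% lower, with 7.25% and 6.35% at the unadjusted threshold. DESeq2 called 2.48% and 1.45% of the genes it tested, and limma-voom 1.08% and 0.315%.

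The 3 members that read methylated DNA did not separate the genotypes. Zbtb33, which encodes Kaiso and lies on the X chromosome, averaged 60.5 ± 5.3 CPM in Nfkb2-/- Tregs, against 59.4 ± 6.88 CPM in wild-type Tregs (SD, n = 3 each). Its libraries stood at 65.1, 61.7 and 54.7 CPM in Nfkb2-/- and at 60.2, 65.8 and 52.1 CPM in wild type, in the same groups that differed in Xist. Zbtb4 was at 129, 123 and 114 CPM in Nfkb2-/- and at 174, 116 and 115 CPM in wild type. Only wild-type replicate 1 lay outside the range of the others, and the log2 fold change, -0.15 with it, was 0.07 without it. Zbtb38 averaged 92.2 ± 10.1 CPM in Nfkb2-/- Tregs, against 92.6 ± 13.9 CPM in wild-type Tregs (SD, n = 3 each). The log2 fold change was positive in 1 of the 3 (median -0.01). None had an unadjusted p under 0.05 by edgeR, and DESeq2 and limma-voom called 0.

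Among 5 members tied to genome maintenance, Zbtb40 had the smallest p and 0 were called by edgeR, DESeq2 or limma-voom. At an unadjusted p under 0.05 1 was lower, and the median log2 fold change was -0.11. Zbtb40 was at 33.2, 31.8 and 29.4 CPM in Nfkb2-/- and at 58.2, 37.4 and 36.2 CPM in wild type. Each Nfkb2-/- library was below each wild-type library, most clearly below replicate 1. The log2 fold change was -0.48 (SE 0.203, edgeR adjusted p = 0.354), and -0.23 without wild-type replicate 1. Zbtb11, needed for neutrophil development in zebrafish, was at 69.0, 76.1 and 75.4 CPM in Nfkb2-/- and at 80.6, 81.2 and 86.1 CPM in wild type. The groups did not overlap, but the difference was small, at a log2 fold change of -0.17 with SE 0.110 (edgeR adjusted p = 0.583). Some 11.5% of its exon bases are shared with other genes, including the antisense Zbtb11os1, which unstranded counts cannot separate.

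The other genome maintenance members overlapped between genotypes. Zbtb10 was at 189, 195 and 207 CPM in Nfkb2-/- and at 186, 197 and 221 CPM in wild type, the highest level per length of the family. Zbtb24, mutated in the immunodeficiency ICF syndrome in humans, averaged 30.8 ± 2.56 CPM in Nfkb2-/- Tregs, against 33.1 ± 10.2 CPM in wild-type Tregs (SD, n = 3 each). Zbtb48, whose human counterpart encodes the telomere-length regulator TZAP, averaged 29.3 ± 4.87 CPM and 26.5 ± 2.21 CPM in the same groups (SD, n = 3 each). The differences of Zbtb10, Zbtb24 and Zbtb48 were smaller than the larger of the SDs of the 2 groups.

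Zbtb43 and Zbtb41 had slightly higher levels in all Nfkb2-/- libraries than in wild type. Zbtb43 was at 60.2, 68.1 and 66.2 CPM in Nfkb2-/- and at 54.9, 58.6 and 52.2 CPM in wild type. Its log2 fold change was 0.23 (SE 0.118, edgeR adjusted p = 0.459). Zbtb41 was at 32.1, 35.8 and 32.7 CPM in Nfkb2-/- and at 27.1, 31.4 and 25.0 CPM in wild type, and its log2 fold change was 0.27 (SE 0.144, edgeR adjusted p = 0.492). These differences were 1.17-fold and 1.20-fold and did not pass the test.

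Among the members with the smallest p, 4 more had lower means in Nfkb2-/- with ranges that overlapped. Zbtb8a, a low-level gene that shares 11.4% of its exon bases with Zbtb8os on the other strand, was at 2.23, 1.48 and 0.896 CPM in Nfkb2-/- and at 4.10, 1.98 and 2.10 CPM in wild type (log2 fold change -0.84, SE 0.453, edgeR adjusted p = 0.491). Zbtb37 was at 43.2, 30.0 and 23.9 CPM in Nfkb2-/- and at 88.4, 28.3 and 23.9 CPM in wild type. Its direction rested on wild-type replicate 1: the log2 fold change was -0.54 (SE 0.488, edgeR adjusted p = 0.710) with that library and 0.31 without it. Zbtb44 averaged 84.7 ± 7.47 CPM in Nfkb2-/- Tregs, against 98.4 ± 22.8 CPM in wild-type Tregs, and Zbtb22 23.4 ± 2.88 CPM and 27.1 ± 4.01 CPM in the same groups (SD, n = 3 each). Neither of the last pair exceeded the spread of its wild-type libraries.

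The other 14 tested members all overlapped between genotypes. These were Zbtb2, Zbtb3, Zbtb5, Zbtb6, Zbtb8os, Zbtb12, Zbtb14, Zbtb18, Zbtb26, Zbtb34, Zbtb39, Zbtb42, Zbtb45 and Zbtb49. Their group means ran from 1.98 to 59.6 CPM and their log2 fold changes from -0.33 to 0.20, with 8 positive and 6 negative. The smallest edgeR adjusted p among them was 0.752. Wild-type replicate 1 was the highest library in 11 of the 14.

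The members that failed the count filter were Zbtb7c, Zbtb8b and Zbtb9. Zbtb7c had 0 counts in Nfkb2-/- and 1 in wild type, and Zbtb9 had 0 and 3. Zbtb8b had no count in any library, which at this depth allows a level of up to 0.0767 CPM in Nfkb2-/- Tregs and 0.0709 CPM in wild-type Tregs (3 counts over the group, counting error only). Of the exon bases of Zbtb9, 84.4% also belong to other genes, and how shared reads were counted is not stated in the sources used.

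Levels per length spread over a wide range within the family. In CPM per kb of exon, averaged over the 6 libraries, they ran from 0.45 (Zbtb16) to 26.9 (Zbtb10), with a median of 6.03, and 22 of the 38 tested members lay above the median of all genes tested, 5.56. The 5 highest were Zbtb10 at 26.9, Zbtb7a at 22.3, Zbtb21 at 20.9, Zbtb17 at 19.8 and Zbtb1 at 18.6 CPM per kb. Zbtb46 averaged 7.66 CPM per kb. In the order of levels the ranges over 6 libraries overlapped in all 37 pairs of neighbours, so no step of that order exceeded the spread of the libraries. Zbtb21 was at 127, 122 and 125 CPM in Nfkb2-/- and at 99.2, 146 and 176 CPM in wild type, tight among the Nfkb2-/- libraries and wide among the wild-type ones.

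**Figure D4:**
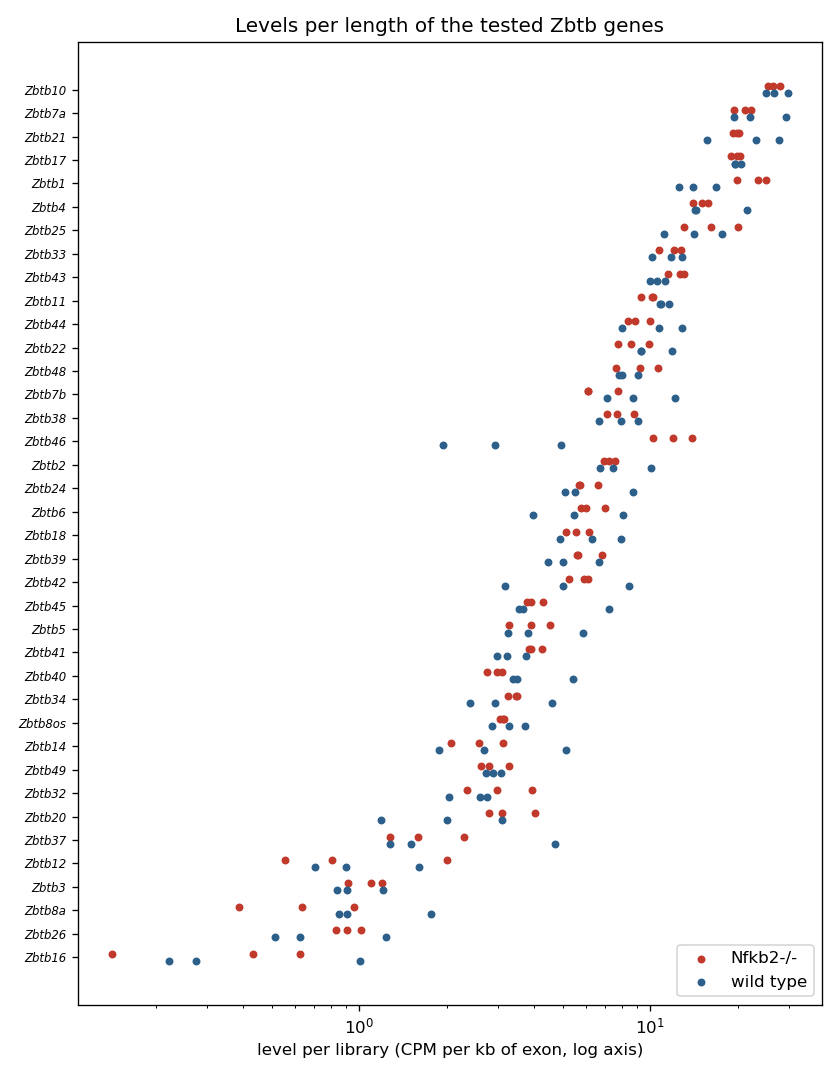
Level per library in CPM per kb of exon (x axis, log scale) of the 38 tested Zbtb genes, ordered by their mean, with Nfkb2-/- points drawn above wild-type points in each row. Zbtb10 is at the top with a mean of 26.9 and Zbtb16 at the bottom with 0.45, and the points of the genotypes are separated most widely in Zbtb46.

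Wild-type replicate 1 stood apart in the family. It was the highest of the 6 libraries in 20 of 38 members, or 52.6%, beside 34.2% of all genes tested, while wild-type replicate 3 was the lowest in 18, or 47.4%, beside 20.2%. The median coefficient of variation over members was 9.95% among Nfkb2-/- libraries and 23.6% among wild-type libraries, beside 11.2% and 22.0% over all genes tested. Without wild-type replicate 1, 27 of 38 members had a positive log2 fold change, and the median was 0.09, beside 0.00 over all genes tested. By edgeR Zbtb46 and Zbtb1 were then called higher and 0 members lower.

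**Figure D5:**
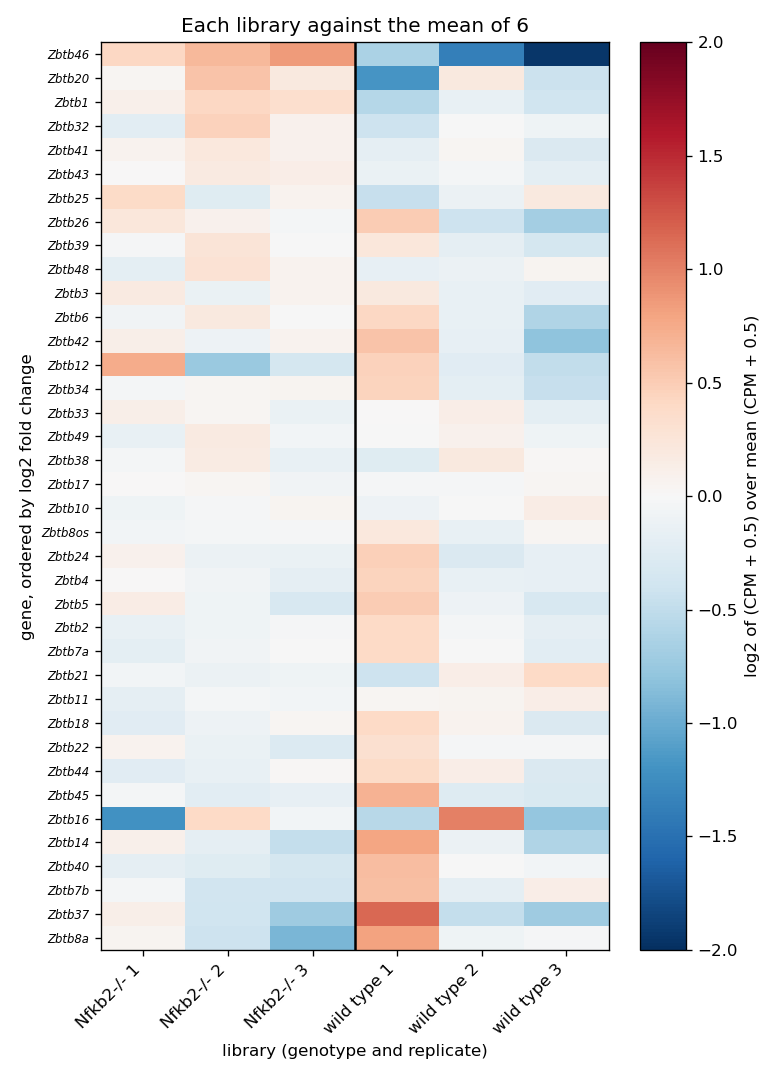
Log2 of CPM + 0.5 over the gene's mean of CPM + 0.5 in 6 libraries (colour), for the 38 tested Zbtb genes in order of log2 fold change (rows) and the libraries (columns, Nfkb2-/- left of wild type). The top row, Zbtb46, is high in the Nfkb2-/- columns, and the wild-type replicate 1 column is the highest of its row in 20 of 38 genes.

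The members are spread over 15 chromosomes, with a few close neighbours. Zbtb6 and Zbtb26 overlap on the minus strand of chromosome 2 and share exons. Zbtb6 averaged 31.8 ± 3.2 CPM in Nfkb2-/- Tregs, against 29.6 ± 10.5 CPM in wild-type Tregs, and Zbtb26 8.69 ± 0.855 CPM and 7.50 ± 3.68 CPM in the same groups (SD, n = 3 each). Zbtb34 and Zbtb43 lie 18963 bases apart on the same chromosome and strand (GRCm38). Zbtb34 averaged 22.4 ± 0.861 CPM in Nfkb2-/- Tregs, against 21.9 ± 7.6 CPM in wild-type Tregs (SD, n = 3 each), while Zbtb43 is the gene described among those that did not overlap.

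BTB zinc finger genes without a Zbtb symbol gave no call. Of 8 tested 4 had a positive log2 fold change (median -0.01), and none had an unadjusted p under 0.05 by edgeR or a call by DESeq2 or limma-voom. Bcl6, which directs germinal centre cells and follicular T cells, was at 201, 202 and 222 CPM in Nfkb2-/- and at 218, 254 and 246 CPM in wild type (log2 fold change -0.20, edgeR adjusted p = 0.553). Patz1, another thymocyte regulator, had a log2 fold change of -0.33 (edgeR adjusted p = 0.405). Both overlapped between genotypes.

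Of 18 corepressors and ligase partners, 0 were called by edgeR, DESeq2 or limma-voom, and 2 had an unadjusted p under 0.05, both lower (median log2 fold change 0.02). These were Hdac7 and Hdac5, class II histone deacetylases, with log2 fold changes of -0.57 and -0.28 (edgeR adjusted p = 0.171 and 0.341). Of 14 genes of the CD4 lineage circuit around Zbtb7b, 1 was called higher and 0 lower (median -0.10), with 3 higher and 3 lower at an unadjusted p under 0.05. DESeq2 called 3 higher and 1 lower, and limma-voom 1 and 0. Beside both lists, edgeR called 1.01% of all genes tested higher and 0.405% lower. The shares were 2.48% and 1.45% by DESeq2 and 1.08% and 0.315% by limma-voom. At an unadjusted p under 0.05 by edgeR they were 7.25% and 6.35%. The called gene was Gata3, a CD4 lineage factor, at 146, 146 and 173 CPM in Nfkb2-/- and 93.6, 93.9 and 80.4 CPM in wild type (log2 fold change 0.80, edgeR adjusted p = 0.0297).

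In the MYC and MIZ-1 list 0 of 13 tested genes were called by edgeR (median log2 fold change -0.01), with 2 higher and 0 lower at an unadjusted p under 0.05. DESeq2 called 1 higher and limma-voom 0. Cdkn1a, the cell cycle inhibitor that MIZ-1 activates, was at 156, 182 and 185 CPM in Nfkb2-/- and at 42.3, 77.4 and 105 CPM in wild type. The groups did not overlap, but the edgeR adjusted p was 0.105. The interleukin-7 receptor gene Il7r had a log2 fold change of 0.37 (edgeR adjusted p = 0.343). Of 16 methyl-CpG binding and ICF syndrome genes, 0 were called by edgeR, DESeq2 or limma-voom (median -0.13), with 1 higher and 1 lower at an unadjusted p under 0.05. These were the DNA demethylase genes Tet2 and Tet3, with log2 fold changes of 0.36 and -0.59 (edgeR adjusted p = 0.365 and 0.257). Of 16 genes of the effector programme that BCL6 represses or shares, 2 were called higher (Rora and Gata3) and 1 lower (Il6ra) by edgeR, with a median log2 fold change of 0.29. Rora, a nuclear receptor gene, had a log2 fold change of 1.32 (edgeR adjusted p = 0.0125) and Il6ra, the interleukin-6 receptor gene, one of -1.36 (edgeR adjusted p = 0.0201). At an unadjusted p under 0.05, 6 were higher and 6 lower. DESeq2 called 3 higher and 4 lower, and limma-voom 2 and 1. The 3 calls among 16 genes stand beside 1.42% of all genes tested. This is no test, because the lists were drawn up with earlier results of these data known. Gata3 is also counted in the CD4 lineage list. Over all genes tested, edgeR called 1.01% higher and 0.405% lower, with 7.25% and 6.35% at an unadjusted p under 0.05. DESeq2 called 2.48% and 1.45% of the genes it tested, and limma-voom 1.08% and 0.315%.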

How the data were processed

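The 3 Nfkb2-/- and 3 wild-type Treg libraries were made with a TruSeq kit, per the labels, which does not keep strand. The authors deposited raw read counts per gene. The submitters' processing notes list HISAT2, HTSeq and GRCm38 among the tools and builds, and how HTSeq treated shared reads is not stated in these sources. Of 55573 identifiers 55394 matched GENCODE M21 and 179 did not.

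The test was edgeR 4.0.16 (R 4.3.3) with filterByExpr, TMM, a robust quasi-likelihood fit and genotype as the only term, with p-values adjusted over all genes. Exon length was the union of a gene's exons. Alternatives used DESeq2 1.42.0, limma 3.58.1 voom, other scalings and filters, covariates and left-out libraries. Figures used matplotlib 3.10.9. The code was tested on simulated data, where edgeR recovered 3 of 50 genes changed 1.5-fold and 24 of 50 changed 2-fold. It recovered 44 of 50 changed 4-fold and 50 of 50 changed 8-fold. A gene left uncalled here may therefore still differ by 1.5-fold or 2-fold.

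The members, lists and alternatives were chosen with earlier results of these data known. Genes are named by rule: the called member, the 14 smallest p, the 5 highest levels per kb, the role lists, and from each related list up to 4 called genes or otherwise the 2 smallest p. Other genes named with values were chosen after these were seen.

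Replicate numbers recur in both genotypes with no stated meaning. Libraries of the same number deviated together from their group means (r = 0.381, 0.293 and 0.123, each over the limit of 0.1 set for pairing). One unmatched pair, replicate 3 of Nfkb2-/- with replicate 2 of wild type, reached r = 0.271, above the matched 0.123. Whether equal numbers mark pairs is therefore not settled. The main fit was left unblocked because the labels do not say what a number marks, and the block was run as an alternative. Nothing beyond the labels shows separate animals, so p-values measure the spread between these libraries. Promoter windows came from RefSeq (GRCm38.p6), where 36 of 41 members matched by symbol.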

Additional observations from a re-analysis of the deposited data

How the results depend on the processing

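The number of Zbtb genes called higher, 1 by edgeR as designed, was 2 with no count filter, by DESeq2, with the replicate block and with the B cell marker covariate, and 0 with the Y-linked covariate. Leaving out a library at a time gave 0 to 2. The number called lower was 9 with the B cell marker covariate and 0 in every other fit run. The calls over all genes, 189, became 466 with no count filter, 637 by DESeq2, 289 with the replicate block, 7 with the Y-linked covariate and 2589 with the B cell marker covariate, and were 7 to 1234 with a library left out. The members' median log2 fold change was -0.40 with the B cell marker covariate. Zbtb37 turned to 0.31 and Zbtb7a to 0.02 without wild-type replicate 1, where the 6 fits with a library left out spanned -0.85 to 0.31 and -0.29 to 0.02. In the same fit Zbtb24 turned to 0.18 and Zbtb4 to 0.07. Members not named by rule turned there too, since 27 of 38 members were positive, beside 17 with all libraries. Zbtb16 turned to 0.67 without wild-type replicate 2 and to 0.09 without Nfkb2-/- replicate 1, and Zbtb21 to 0.02 without wild-type replicate 3. Zbtb10, Zbtb17, Zbtb33 and Zbtb38, at most 0.03 from 0 with all libraries, also changed sign in at least 1 fit with a library left out. Among the genes named by rule, Zbtb10, Zbtb16, Zbtb25 and Zbtb33 changed sign with the Y-linked covariate. With the B cell marker covariate Zbtb10, Zbtb16, Zbtb21, Zbtb33 and Zbtb38 did. Members not named by rule changed sign too and are not listed: 13 of 38 members were positive with each covariate, beside 17 in the main fit. None of the genes listed as changing sign was called in those fits. The cause of these changes was not tested. RLE and upper-quartile scaling, a filter of 1 CPM in 3 libraries, limma-voom and leaving out Zbtb8os each gave Zbtb46 as the only member called. The block changed the call of Zbtb1 and of no other Zbtb gene. Zbtb7c, Zbtb8b and Zbtb9, with at most 3 counts per genotype, did not pass the count filter.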
